A study of Caenorhabditis elegans with 23 samples.

Results

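The col genes are the members of the cuticle collagen family of the nematode C. elegans whose name is col- followed by a number. They were taken by name from the WBcel235 gene annotation of Ensembl release 115, where 156 genes have such a name, and 155 of them had at least 1 transcript in the deposited quantification. These 155 genes are described here within all 21985 genes that the files measured. No transcript of the remaining gene, col-127, was listed. The study sequenced polyA+ RNA of mixed-stage whole animals from strains that differ at sid-1, the gene of a conserved importer of double-stranded RNA, to ask which genes differ in transcript level with sid-1. The libraries form 3 sets, each with its own N2 wild-type libraries. The deletion set held sid-1(jam113[deletion]) animals (strain AMJ1324, the whole coding sequence removed by Cas9 editing, n = 3) and wild type (n = 3). The nonsense set held sid-1(jam86[revertant]) animals (AMJ1217, n = 3), sid-1(jam80[nonsense]) animals (AMJ1159, n = 3) and wild type (n = 3), and the revertant was made by editing the nonsense allele back to wild-type sequence. The previous set held sid-1(qt9[nonsense]) animals (HC196, n = 2), sid-1(tm2700[deletion]) animals (FX02700, n = 2), animals that carry the same deletion with the transgene array tmIs1005, which supplies sid-1(+) and a vps-45 minigene (FX15992, here tm2700; tmIs1005, n = 2), and wild type (n = 2).

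Each edited strain is 1 line. The jam113 line was recovered with a co-injected plasmid that carries rol-6, and the jam80 and jam86 lines with co-editing of dpy-10, and rol-6 and dpy-10 are cuticle collagen genes too. Animals of the deletion and nonsense sets came from crowded plates that had not starved. For the previous set the sample labels state liquid culture, whereas the study's methods describe washing of plates, and its RNA extraction, library kit and read type differ from those of the plate sets. These differences cannot be told apart from the strains when the sets are compared, so mutants are compared here with the wild type of their own set. The study calls its replicates biological, but they share a line and, as far as the labels state, a culture regime.

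The cuticle is the exoskeleton of the worm. The epidermis builds it mainly from small collagens, which are secreted, trimmed, cross-linked and laid down anew at the end of embryogenesis and at each larval moult, so that most cuticle collagen genes are transcribed in a pulse at one or more moults. The cuticles of larvae, of the dauer larva (an arrested, stress-resistant stage that larvae can enter when food is short or animals are crowded) and of the adult differ in structure and in the collagens they contain. Thus, in RNA from a mixed-stage population, the level of a collagen transcript depends on the stages present as well as on the activity of the gene, and these bulk libraries cannot tell apart more animals of a stage from more transcript per animal.

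The libraries held between 35320382 and 79287591 estimated counts in the plate sets and between 22147631 and 26396892 in the previous set. In CPM, the counts of a gene scaled to the estimated counts of its library, sid-1 was at 1.18 to 1.37 in jam113 animals against 48.9 to 57.2 in their wild type. It was at 27.9 to 34.0 in jam86 animals and at 16.0 to 18.8 in jam80 animals, against 32.5 to 36.7 in their wild type. In the previous set it was at 14.5 and 18.3 in qt9 animals, at 22.2 and 23.7 in tm2700 animals and at 45.9 and 51.3 in tm2700; tmIs1005 animals, against 30.6 and 32.1 in wild type, so that every group was in the direction of its label. Pairs of replicates differed by more than sampling noise in every group (chi-square of 5.01 to 124.1 per degree of freedom over genes), and each library was counted once.

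Together the 155 col genes took 1.23% to 4.87% of the estimated counts of a library. In the deletion set their summed share was 2.69%, 2.31% and 1.94% in jam113 animals, against 1.42%, 1.23% and 1.79% in wild type. All 3 jam113 libraries were thus above all 3 wild-type libraries, although the lowest jam113 library and the highest wild-type library were close. In the nonsense set the share was 4.41%, 4.52% and 4.87% in jam86 animals and 4.59%, 4.11% and 4.05% in jam80 animals, against 4.5%, 4.26% and 4.16% in wild type, and these groups overlapped. In the previous set it was 1.48% and 1.70% in qt9 animals, 1.73% and 1.83% in tm2700 animals and 1.68% and 1.62% in tm2700; tmIs1005 animals, against 1.69% and 1.55% in wild type. The difference between the wild types of the deletion and nonsense sets, which have the same genotype, was larger than any difference between strains within a set.

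**Figure D1:**
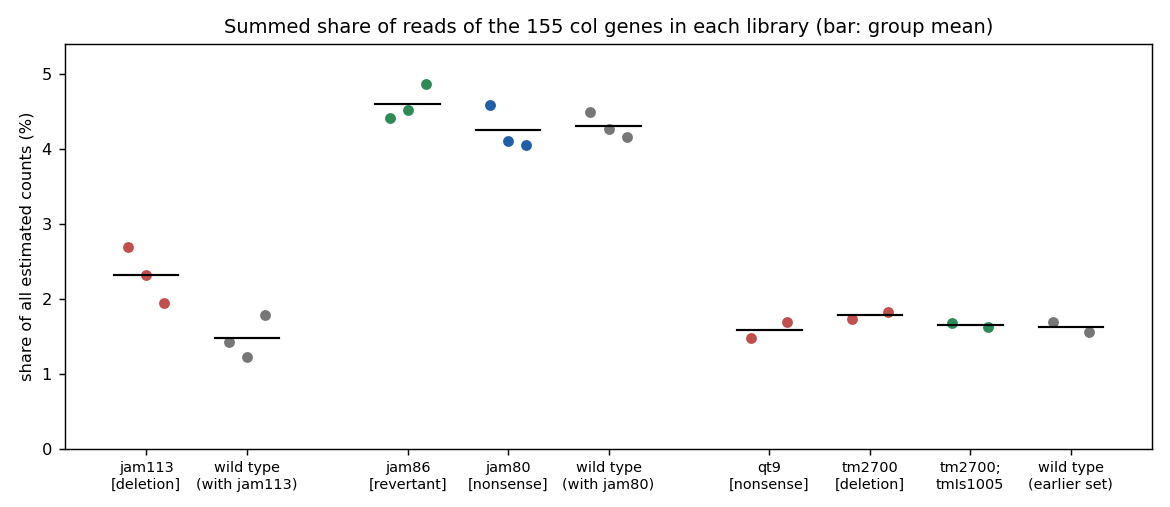
Summed share of the 155 col genes in the estimated counts of each library (vertical axis, %), with points for libraries, horizontal bars for group means, and gaps between the deletion set (left), the nonsense set and the previous set (right). The jam113 libraries (1.94% to 2.69%) lie above their wild type (1.23% to 1.79%), while the largest step is between the wild type of the nonsense set (4.16% to 4.5%) and the other wild types.

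The family is spread over all 6 chromosomes, with 40 of the measured members on chromosome IV, 31 on V, 27 on X, 24 on II, 21 on I and 12 on III. Counting col-127, 50 genes stand in 21 groups of neighbours that are at most 10 kb apart, the largest of which is col-167, col-168, col-169, col-170 and col-171 on the X chromosome. Most members are short genes, with a longest transcript of 1012 nt at the median and at most 3 exons in 116 of 155. Several neighbours and other members are close copies of each other, such as col-12 and col-13, and how far reads were shared between such copies was not tested.

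Levels between genes were compared in TPM, a share of transcripts that accounts for transcript length. Over all wild-type libraries the 10 members with the highest mean TPM were col-122, col-124, col-119, col-140, col-181, col-20, col-178, col-106, col-184 and col-8. This mean is weighted by the nonsense set, where levels are highest, and 6 of the 10 are also among the 10 highest in the wild type of the previous set. There col-8, col-124 and col-184 rank 27, 18 and 16, whereas col-3 and col-10, at 635 ± 80.8 and 458 ± 44.4 TPM (SD, n = 2), rank 2 and 6 and are not among the 10 highest over all wild types. The mean TPM of col-122 was 1088 ± 217 in the deletion-set wild type, 3009 ± 152 in that of the nonsense set and 489 ± 35.6 in that of the previous set (SD, n = 3, 3 and 2). In the same order the mean TPM of col-124 was 1039 ± 229, 3158 ± 192 and 181 ± 13.9, which gave it ranks 2, 1 and 18 in the family, while col-119 was at 905 ± 158, 2465 ± 144 and 743 ± 41.1 TPM, with ranks 5, 3 and 1. In the wild type of the nonsense set the members at ranks 1 and 2, col-124 and col-122, differed by less than their SDs. The 10 members with most reads held 58.6%, 49.6% and 48.1% of the reads of the family in the deletion, nonsense and previous wild types. At the other end, between 1 and 14 members had no read in a given library, and 112, 116 and 107 members were above a mean of 1 TPM in the 3 wild types.

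**Figure D2:**
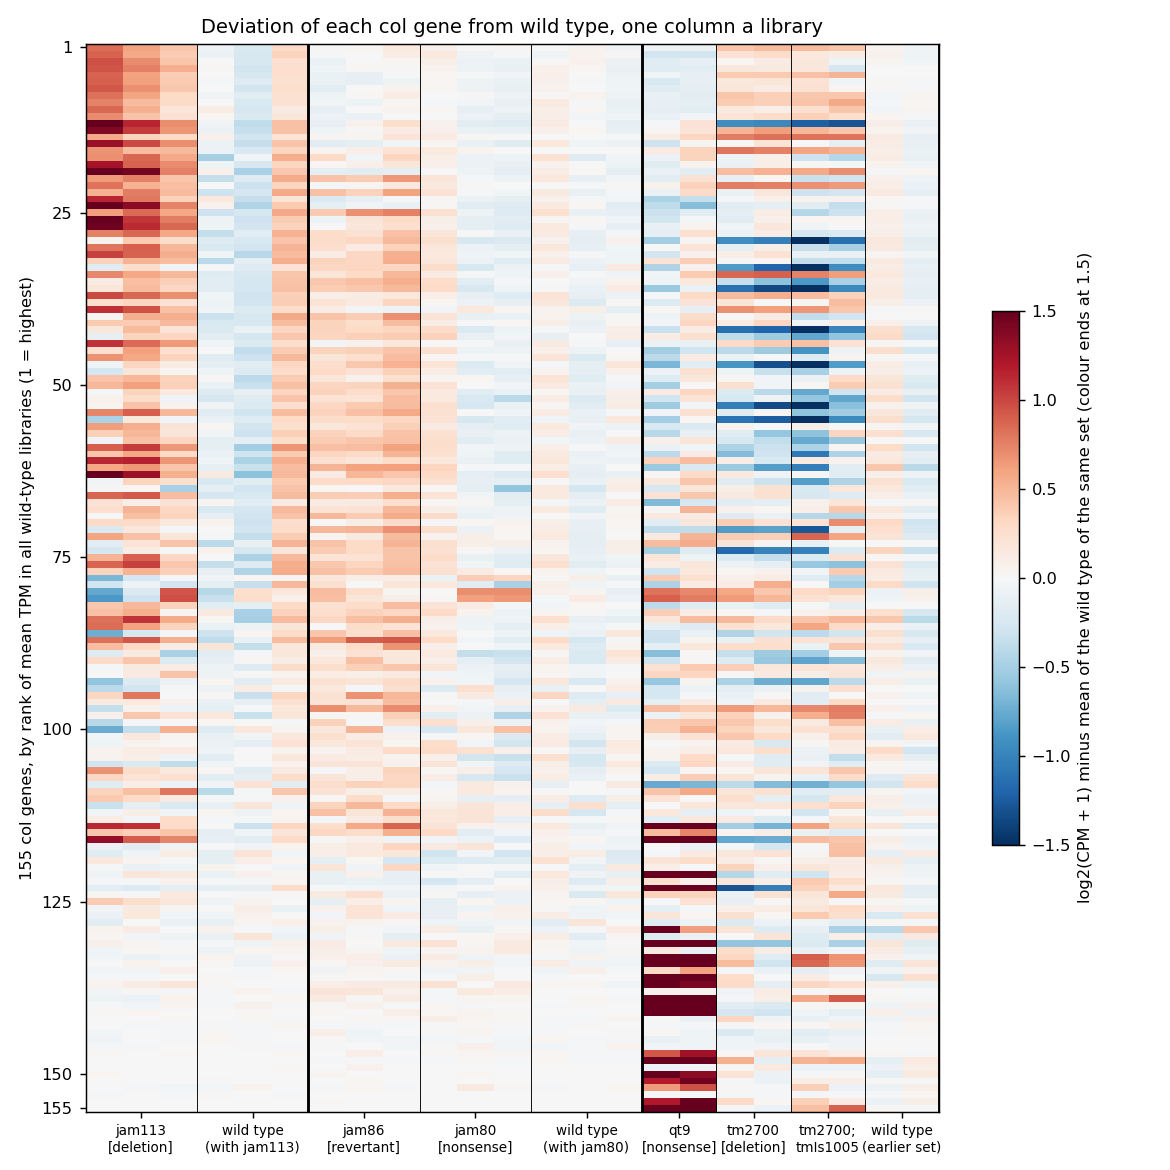
Deviation of each of the 155 col genes (vertical axis, ranked by mean TPM in all wild-type libraries, highest at the top) from the wild-type mean of the same set, as a difference of log2(CPM + 1), with 1 column a library and thick lines between sets. The upper ranks are raised in jam113 libraries, middle ranks in jam86 libraries, and many of the lowest ranks in qt9 libraries, where the colour is at its end for several genes.

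Members of known stage ranged widely in level. Among genes of the adult cuticle, col-19, the standard marker of the adult epidermis, was at 492 ± 68.0, 1018 ± 38.4 and 153 ± 6.41 TPM in the wild types of the deletion, nonsense and previous sets. Among dauer genes, col-2 was at most at 0.231 CPM in any wild-type library and col-40 at most at 0.396 CPM, which is near the level of a few reads. To see which members varied together among replicates, the deviation of log2(CPM + 1) from the group mean was correlated over the 15 plate libraries for the 116 members above a mean of 1 CPM. The members most like col-19 were col-181 (r = 0.98), col-20 (0.98), col-184 (0.98), col-179 (0.96) and col-143 (0.96), and 3 of these 5 are among the 10 most abundant members. The members most like col-17, which is transcribed at larval moults, were col-154 (r = 0.93), col-169 (0.93), col-166 (0.92), col-144 (0.92) and col-10 (0.92). Between col-17 and col-19 r was 0.53. These coefficients describe libraries that were grown alike within a set and that differ in depth.

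The neighbours col-17, col-20 and col-73 lie on 1 strand of chromosome II between positions 4866436 and 4873129 and varied together only in part. Over the same libraries r was 0.92 between col-17 and col-73 but 0.58 between col-17 and col-20 and 0.38 between col-20 and col-73. In tm2700 animals col-73 was at 40.1 and 37.5 CPM against 86.8 and 69.3 in wild type (log2 fold change -1.06, SE 0.11, adjusted p = 0.00164). By contrast, col-20 was at 913 and 931 CPM in tm2700 animals against 829 and 812 in wild type (log2 fold change 0.12, SE 0.07, adjusted p = 0.593).

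Most of the col genes were higher in sid-1(jam113[deletion]) animals than in their wild type, but none passed the test. Of 131 members tested with edgeR's quasi-likelihood test, 0 had an adjusted p under 0.05, against 0.197% of all 16783 genes tested (0.167% higher and 0.0298% lower). At an unadjusted p under 0.05 there were 57 higher and 1 lower (58 of 131, or 44.3%, against 12.7% of all genes). The log2 fold change was above 0 for 109 of the 131, with a median of 0.42 against 0.00 for all genes. Replicates did not overlap for 43 members that were higher, against 6.81% of all genes, and for 3 that were lower, against 12.9% of all genes. With limma voom 0 members passed and with DESeq2 33 did, all higher. The result hinges on single libraries, since 33 members were higher and 1 lower without the third jam113 replicate, and 16 were higher without the third wild-type replicate. These libraries are the lowest of jam113 and the highest of wild type by summed share, and what sets them apart was not tested.

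Among abundant members the values lay close together. The 10 members highest over all wild types had log2 fold changes of 0.54 to 0.78 in jam113 animals, and in each the replicates did not overlap. For example, col-122 was at 1886, 1603 and 1404 CPM in jam113 animals, against 999.7, 906 and 1298 CPM in wild type (log2 fold change 0.65, SE 0.16, adjusted p = 0.16). Similarly, col-140 was at 1585, 1386 and 1203 CPM in jam113 animals, against 832, 678 and 979.6 CPM in wild type (log2 fold change 0.78, SE 0.15, adjusted p = 0.104). In both genes the third jam113 library was nearest to wild type. The median log2 fold change was 0.67 for the 25 members with the highest TPM, 0.40 for ranks 26 to 75 and 0.19 for the 56 tested below rank 75.

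The adult marker col-19 was at 1099, 901 and 786 CPM in jam113 animals, against 686, 575 and 760.5 CPM in wild type (log2 fold change 0.50, SE 0.14, adjusted p = 0.213), without overlap. However, the genes that are transcribed at the moult into the adult overlapped. One of these, col-38, was at 107, 146 and 118 CPM in jam113 animals, against 119, 107 and 142 CPM in wild type. Its log2 fold change was 0.05 (SE 0.14), while col-63 had -0.08 (SE 0.18). The others, col-49 and col-138, had 0.21 (SE 0.15) and 0.33 (SE 0.19). The adult gene col-7 had 0.43 (SE 0.20), also with overlapping replicates. The larval genes col-12, col-13 and col-17 had log2 fold changes of 0.28 (SE 0.16), 0.43 (SE 0.18) and 0.11 (SE 0.19), all with overlapping replicates. Among members studied for their effect on lifespan, col-10 had a log2 fold change of 0.59 (SE 0.22) and col-120 of -0.02 (SE 0.15). The transmembrane collagen gene col-99, which acts outside the cuticle, had 0.69 (SE 0.29). Neither the 21 other cuticle collagen genes tested (bli, dpy, lon, rol and sqt genes, named for blistered, dumpy, long, roller and squat mutants) nor the 11 genes of collagen processing had a member that passed, and their median log2 fold changes were 0.13 and 0.10. The markers of moulting larvae, 10 genes that include mlt-10 and noah-1, summed to 247 to 299 CPM in jam113 animals against 234 to 289 CPM in wild type, and the vitellogenin genes of the adult intestine to 43301 to 48049 CPM in jam113 animals against 44993 to 50522 CPM in wild type.

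No member passed in sid-1(jam80[nonsense]) animals. Of 132 members tested, 0 passed at an adjusted p under 0.05, against 0.0665% of all 16548 genes tested (0.0363% higher and 0.0302% lower), and 7 had an unadjusted p under 0.05 (5.30% against 6.28% of all genes). Neither limma voom nor DESeq2 called any member, and 2 were called without the first jam80 replicate. The median log2 fold change was 0.02 against 0.00 for all genes, and 77 of 132 were above 0. Replicates did not overlap for 1 member that was higher and for 1 that was lower, against 4.85% and 5.28% of all genes. The adult marker col-19 was at 1397, 1327 and 1277 CPM in jam80 animals, against 1501, 1371 and 1350.3 CPM in wild type (log2 fold change -0.05, SE 0.06). The larval gene col-17 was at 209, 160.3 and 141 CPM in jam80 animals, against 204, 163 and 199 CPM in wild type (log2 fold change -0.12, SE 0.12). In both genes the groups overlapped, and the first jam80 library was the highest of its group. The members with the highest TPM had log2 fold changes between -0.04 and 0.06, and the 21 other cuticle collagen genes a median of -0.05.

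The difference between the jam113 and jam80 changes, each taken against its own wild type, was tested as an interaction over both sets, and 2 of 136 members passed, both with a larger change in jam113 animals, against 0.25% of all 17171 genes tested (0.198% in that direction and 0.0524% in the other). The first is col-103, which was at 391, 309 and 259 CPM in jam113 animals, against 136, 118 and 179 CPM in wild type, and at 645, 548 and 535 CPM in jam80 animals, against 673, 599 and 561 CPM in wild type. It was higher in all 3 jam113 libraries and overlapped in the nonsense set, with a difference of log2 fold changes of 1.24 (SE 0.23, adjusted p = 0.0421). The other is col-142, which was at 142, 121 and 104 CPM in jam113 animals, against 63.4, 57.8 and 80.2 CPM in wild type, and at 217, 212 and 201 CPM in jam80 animals, against 238, 215 and 199 CPM in wild type. Its difference was 0.93 (SE 0.17, adjusted p = 0.0474). Within the deletion set alone their adjusted p-values were 0.0654 and 0.0705. The count depended on single libraries and was 34 without the third wild-type replicate of the deletion set, 37 without the third jam113 replicate, 1 without the first jam80 replicate and 0 without any other single library.

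In sid-1(jam86[revertant]) animals 47 of 135 members were higher and 0 lower than in wild type, against 3.28% of all 16630 genes that passed, 2.38% as higher and 0.896% as lower. The jam80 comparison used the same wild-type libraries. The rises were small, between 0.24 and 0.84 on the log2 scale, and 117 of the 135 members were above 0 (median 0.27, against 0.02 for all genes). Replicates did not overlap for 64 that were higher, against 14.4% of all genes, and for 1 that was lower, against 10.8%. The count was 45 with limma voom and 54 with DESeq2, and 21 without the third jam86 replicate, which had the largest summed share.

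The largest rise was that of col-176, which was at 33.6, 41.2 and 41.7 CPM in jam86 animals, against 26.5, 17.6 and 20.9 CPM in wild type (log2 fold change 0.84, SE 0.11, adjusted p = 0.00099). Next, col-158 was at 2.73, 3.63 and 4.72 CPM in jam86 animals, against 2.49, 1.9 and 2.0 CPM in wild type (log2 fold change 0.77, SE 0.18, adjusted p = 0.0318). All 3 revertant libraries were above all wild-type libraries in both genes. The remaining genes of the 5 largest rises were col-58 (log2 fold change 0.69, SE 0.12, adjusted p = 0.00518), col-117 (0.60, SE 0.09, adjusted p = 0.00317) and col-88 (0.57, SE 0.06, adjusted p = 0.000149). In the abundant col-117 the values were 562, 686 and 722 CPM in jam86 animals, against 506, 395 and 391 CPM in wild type.

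By stage, 4 of the 6 adult genes rose in the revertant, namely col-38, col-49, col-63 and col-138. These genes are transcribed at the moult from the last larval stage into the adult. For example, col-138 was at 364, 372 and 393 CPM in jam86 animals, against 277, 261 and 304 CPM in wild type (log2 fold change 0.41, SE 0.06, adjusted p = 0.00343). However, col-19 was at 1321, 1310.3 and 1402 CPM in jam86 animals, against 1501, 1371 and 1350.3 CPM in wild type, with a log2 fold change of -0.08 (SE 0.06) and overlapping groups. None of the larval genes passed, and col-17 was nearest at 219, 216 and 260.4 CPM in jam86 animals, against 204, 163 and 199 CPM in wild type (log2 fold change 0.28, SE 0.08, adjusted p = 0.0598). The lifespan-linked genes col-10 and col-120 rose, with log2 fold changes of 0.47 (SE 0.07) and 0.36 (SE 0.06) and adjusted p-values of 0.00317 and 0.00603. Also linked to lifespan, col-13 had a log2 fold change of 0.15 (SE 0.07) and did not pass. Of the dauer genes, col-2, col-40 and col-183 were at 0.227 CPM or less in every library of this comparison and none passed.

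The rises in the revertant were mostly among members of middle level. Of the 25 members with the highest TPM, 3 rose (median log2 fold change 0.00), compared with 34 of the 50 at ranks 26 to 75 (median 0.32) and 10 of the 60 tested below rank 75 (median 0.27). The 10 highest had log2 fold changes of -0.12 to 0.05, and none passed. Among other genes of the cuticle, 10 of 21 named collagen genes rose and 0 fell, of which rol-1 rose most, by 0.42 (SE 0.06, adjusted p = 0.00317). In the same comparison 1 of 11 processing enzymes and 1 of 10 markers of moulting larvae rose. The moulting markers summed to 653 to 694 CPM in jam86 animals, against 523 to 623 CPM in wild type, and none of the 10 was at 0 in a group. A list of 6 oocyte genes summed to 5231 to 5810 CPM in jam86 animals, against 6028 to 6653 CPM in wild type (median log2 fold change -0.19), and 0 of the 6 passed. A list of 5 sperm genes summed to 26.2 to 27.5 CPM in jam86 animals, against 21.0 to 22.1 CPM in wild type (median 0.35), and 1 of the 5 rose, spe-11, by 0.35 (SE 0.09, adjusted p = 0.0436). Neither the vitellogenin genes nor the embryo markers had a member that passed. The part of these differences in stage and germline markers in the collagen result was not tested.

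Against jam80 animals, from which the revertant was made, 16 of 135 members were higher in jam86 animals and 0 lower, against 1.25% of all 16603 genes that passed, 0.97% as higher and 0.277% as lower. Replicates did not overlap for 62 that were higher, against 15.1% of all genes, and for 0 that were lower, against 7.13% of all genes. The median log2 fold change was 0.26 against 0.02 for all genes. As jam86 takes part in both comparisons, the values stand here side by side only. For col-176, jam86 animals had 33.6, 41.2 and 41.7 CPM, against 26.6, 20.7 and 19 CPM in jam80 animals (log2 fold change 0.79, SE 0.11, adjusted p = 0.00417). For col-58, jam86 animals had 10.8, 9.18 and 10.9 CPM, against 6.67, 6.06 and 5.66 CPM in jam80 animals (log2 fold change 0.72, SE 0.10, adjusted p = 0.00365). Neither gene overlapped between the groups. The other genes of the 5 largest rises were col-117, col-107 and col-60, with log2 fold changes of 0.59 (SE 0.11), 0.48 (SE 0.09) and 0.47 (SE 0.08) and adjusted p-values of 0.0211, 0.0269 and 0.0207. The count was unstable, at 40 with DESeq2, 66 without the first jam80 replicate (64 higher, 2 lower), 32 without the first, 8 without the second and 2 without the third jam86 replicate, and 2 without either of the other jam80 replicates.

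The genes used to recover the edited lines did not pass in these comparisons. In jam113 animals rol-6 was at 27.0, 38.2 and 30.3 CPM, against 35.6, 38.2 and 49 CPM in wild type (log2 fold change -0.32, SE 0.16, adjusted p = 0.445). In jam86 animals dpy-10 was at 40.5, 46.2 and 43.3 CPM, against 41.8, 30.6 and 39.7 CPM in wild type (log2 fold change 0.21, SE 0.09, adjusted p = 0.194). In jam80 animals dpy-10 was at 40, 34.9 and 33.9 CPM (log2 fold change -0.01 against wild type, SE 0.09, adjusted p = 0.987). The dpy-10 repair template of the study mimics a missense allele, so the level of dpy-10 cannot show whether that change remained in a line.

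**Figure D3:**
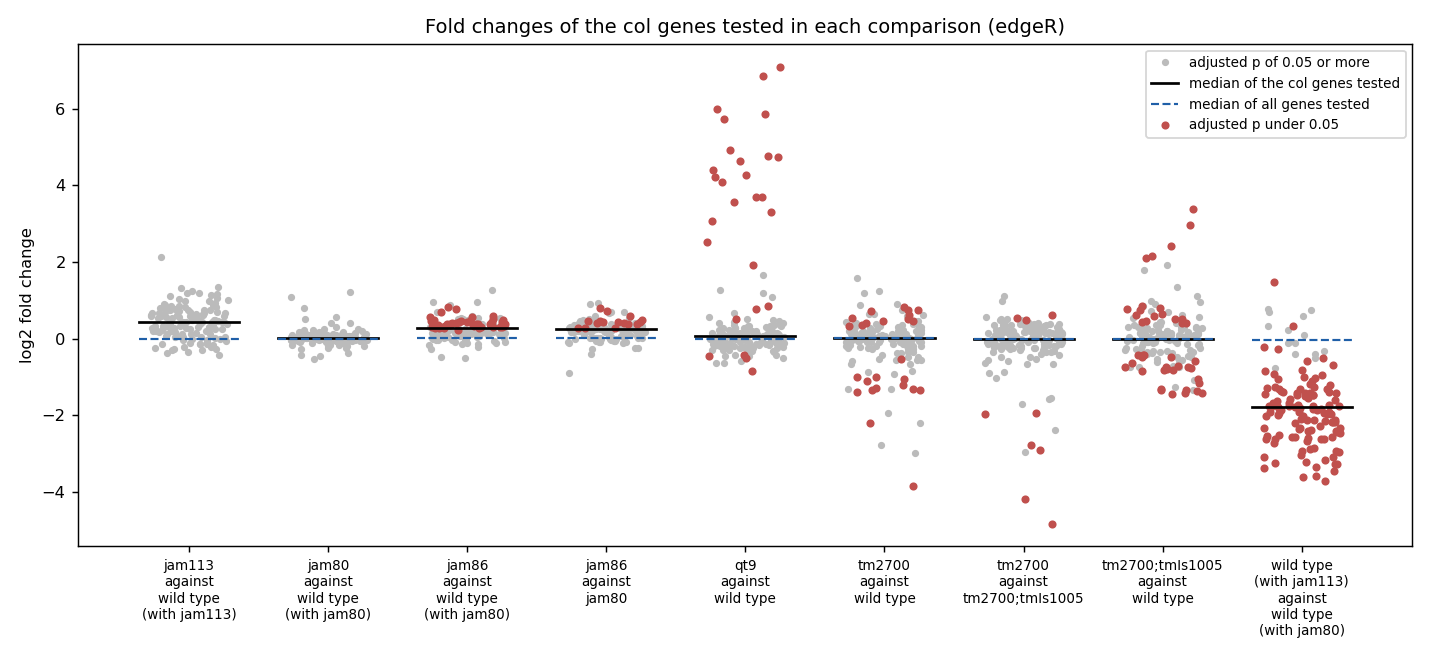
Log2 fold changes (vertical axis) of the col genes tested in each of 9 comparisons, with red points for an adjusted p under 0.05 and grey points for the others, a black line for the median of the col genes tested and a dashed blue line for the median of all genes tested. The medians of the col genes are 0.42 for jam113, 0.27 for jam86 against wild type and -1.80 between the plate wild types, and the large rises are in qt9.

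In sid-1(qt9[nonsense]) animals 23 of 148 members were higher and 4 lower than in wild type, against 1.84% of all 18273 genes that passed, 1.03% as higher and 0.81% as lower. Of those 23, 20 rose by between 1.92 and 7.10 on the log2 scale. In wild type the 20 genes summed to 8.24 and 8.36 CPM, against 151 and 215 CPM in qt9 animals. They were picked by their rise in these same libraries, so the sums are a description only. All 3 dauer genes were among the 20. The dauer cuticle gene col-2 was at 10.7 and 13.5 CPM in qt9 animals, against 0.231 and 0.132 CPM in wild type (log2 fold change 5.99, SE 0.32, adjusted p = 6.57e-12). Also of the dauer cuticle, col-40 was at 11.7 and 15.2 CPM in qt9 animals, against 0.077 and 0.396 CPM in wild type (log2 fold change 5.86, SE 0.34, adjusted p = 2.64e-11). The smallest rise of the 3 was that of col-183, at 3.61 and 1.52 CPM in qt9 animals, against 0.231 and 1.14 CPM in wild type (log2 fold change 1.92, SE 0.46, adjusted p = 0.0297). In each of these genes both qt9 libraries were above both wild-type libraries. Of the 23 that were higher, 9 passed the filter on low values, 0.1 CPM in at least 2 libraries, only through the qt9 libraries. These are col-35, col-37, col-40, col-44, col-51, col-84, col-102, col-163 and col-185. The filter thus selected for a rise in these genes, and their adjusted p-values and ratios are a description only.

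The members with the 2 largest rises, col-102 and col-84, were at 7.0 and 11.3 CPM and at 11 and 14 CPM in qt9 animals, against 0.077 and 0.044 CPM and 0.115 and 0.088 CPM in wild type. Over both wild-type libraries col-102 rested on 3 estimated reads, against 456 in qt9 animals, which is a ratio of 151 with an exact 95% interval from 51.3 to 734 that covers counting error only. For col-84 the reads were 619 in qt9 animals against 5 in wild type, a ratio of 123 (52.4 to 379.6). The fifth of the largest rises was that of col-37, at 7.31 and 8.68 CPM in qt9 animals, against 0.0385 and 0.264 CPM in wild type (log2 fold change 5.74, SE 0.38, adjusted p = 2.51e-10). Among the others of the 20, singled out after their values were seen, col-43 was at 25.9 and 42.4 CPM in qt9 animals, against 1.23 and 0.968 CPM in wild type, and col-36 at 23.7 and 34.4 CPM, against 1.77 and 1.19 CPM in wild type. The remaining 3 that were higher, col-74, col-165 and col-65, rose by 0.52 to 0.84.

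A gene of another family was high in qt9 animals too. It was below 0.1 CPM in both wild-type libraries, so it passed the filter on low values only through the qt9 libraries. Its direction was thus fixed, and its values are a description only. The cuticlin gene cut-1, which encodes a component of the dauer cuticle, was at 8.15 and 13 CPM in qt9 animals, against 0.0770 and 0.0440 CPM in wild type (log2 fold change 7.31, SE 0.42, adjusted p = 2.64e-11). The other gene of the dauer cuticle list, cut-6, was at 9.60 and 11 CPM in qt9 animals, against 7.31 and 5.76 CPM in wild type, and did not pass. Of the 10 markers of moulting larvae, 3 rose, and they summed to 521 and 562 CPM in qt9 animals against 418 and 446 CPM in wild type. The vitellogenin genes vit-1, vit-3, vit-5 and vit-6 of the adult intestine rose as well (4 of 6, median log2 fold change 0.49 over the 6). Of these, vit-3 rose most, by 0.89 (SE 0.15, adjusted p = 0.00191), at 117 and 82.2 CPM in qt9 animals, against 42.9 and 64.6 CPM in wild type. The list summed to 31167 and 25983 CPM in qt9 animals against 23927 and 24421 CPM in wild type. Of the 21 other cuticle collagen genes 5 rose and 0 fell (median log2 fold change 0.27 over the 21), of which rol-8 rose most, by 0.75 (SE 0.17, adjusted p = 0.0183). The abundant sqt-3 was at 523 and 551 CPM in qt9 animals, against 361 and 330 CPM in wild type (log2 fold change 0.63, SE 0.09, adjusted p = 0.000295). The basement membrane collagen gene let-2 rose by 0.44, and none of the oocyte, sperm or embryo markers passed. The part of these markers of larvae and of adults in the collagen result was not tested. In the plate sets the same 20 genes summed to between 2.21 and 7.91 CPM in any library.

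None of the larval or adult members passed in qt9 animals. The larval genes col-12, col-13 and col-17 had log2 fold changes of 0.00 (SE 0.12), -0.02 (SE 0.13) and -0.05 (SE 0.16), and none of the 6 adult genes passed (median -0.22). The 10 members highest over all wild types had log2 fold changes of -0.29 to -0.08, the 10 highest in the wild type of this set had -0.25 to 0.13, and none of either passed. The 4 members that fell were col-116, at 4.71 and 5.0 CPM in qt9 animals, against 7.0 and 10.7 CPM in wild type (log2 fold change -0.86, SE 0.21, adjusted p = 0.0328), and col-143, col-118 and col-179, by 0.51, 0.46 and 0.42. Leaving out 1 library gave 21 or 22 rises, while the falls numbered 14 without the second and 2 without the first qt9 replicate, and 1 without the first and 0 without the second wild-type replicate. With DESeq2, in which some low genes get no adjusted p, 10 were higher and 3 lower.

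**Figure D4:**
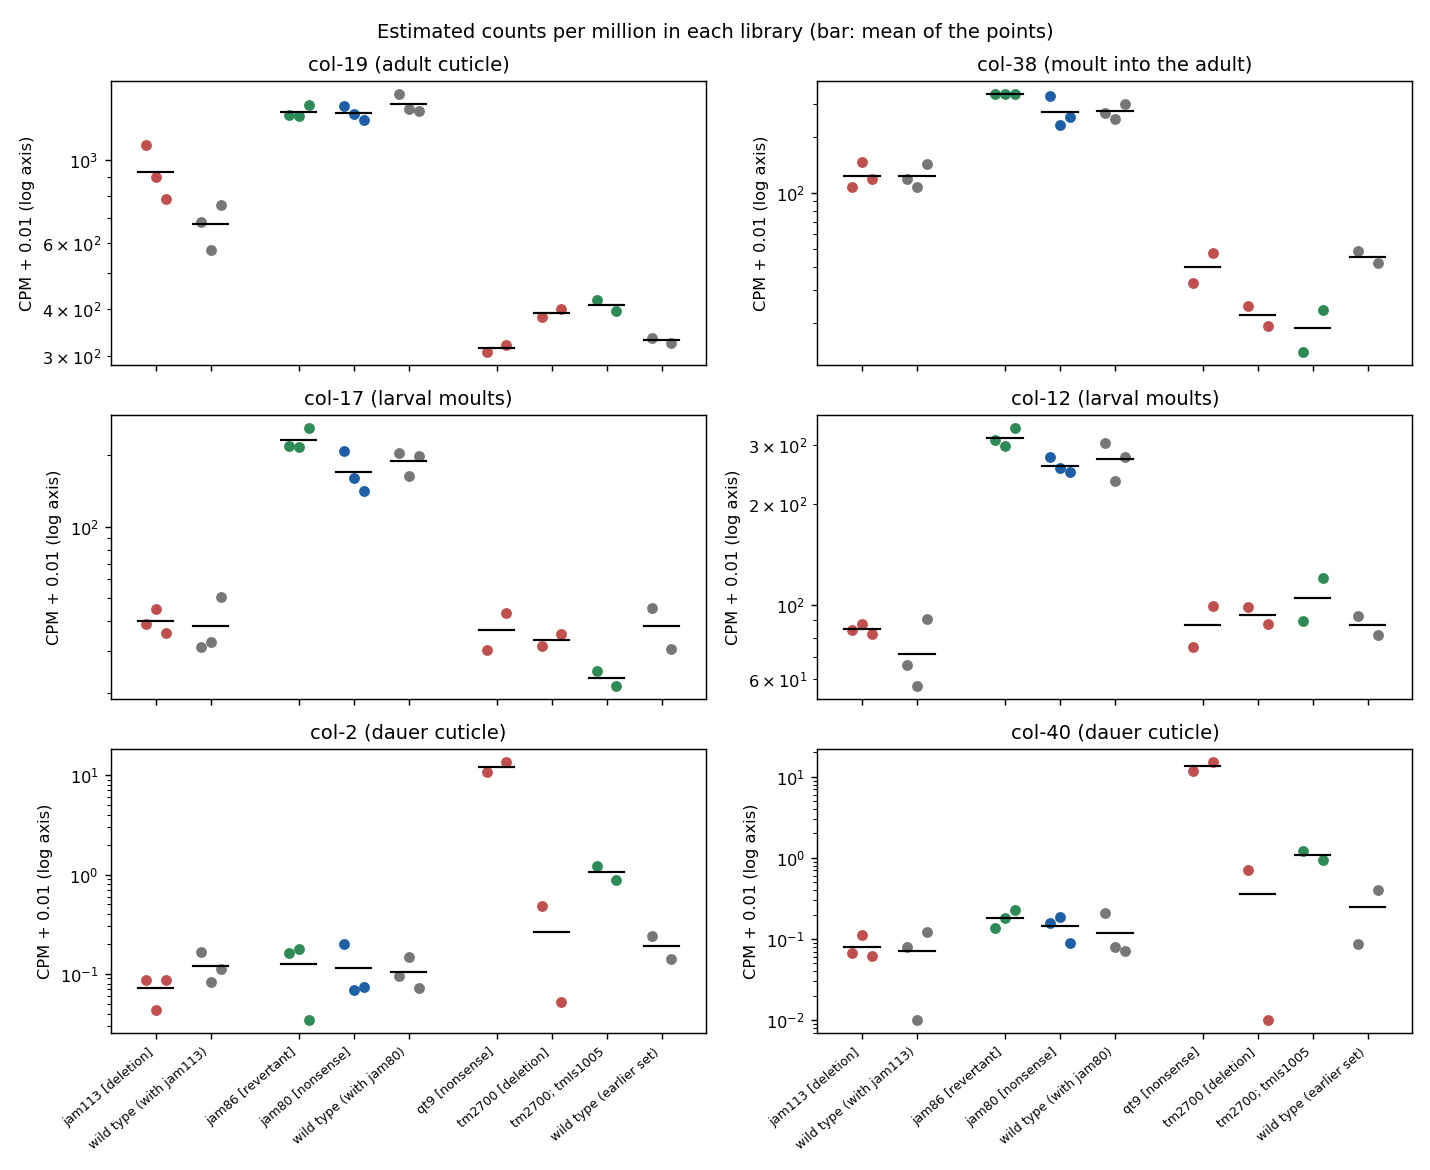
CPM plus 0.01 on a log axis in each library, for col-19 (adult), col-38 (moult into the adult), col-17 and col-12 (larval moults), and col-2 and col-40 (dauer), with points for libraries and bars for group means. The dauer genes are at 10.7 to 15.2 CPM in qt9 libraries and at 1.22 CPM or less elsewhere, and col-38 is low in tm2700 and tm2700; tmIs1005 libraries.

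In sid-1(tm2700[deletion]) animals 12 of 147 members were higher and 13 lower than in wild type, against 1.11% of all 18311 genes that passed, 0.513% as higher and 0.601% as lower. All 4 genes of the moult into the adult fell, and col-138 was at 19.9 and 16.9 CPM in tm2700 animals, against 49.1 and 40.4 CPM in wild type (log2 fold change -1.33, SE 0.12, adjusted p = 0.000594). Likewise, col-49 was at 7.43 and 5.82 CPM in tm2700 animals, against 17.2 and 15.5 CPM in wild type (log2 fold change -1.35, SE 0.14, adjusted p = 0.00174), and col-63 and col-38 had log2 fold changes of -1.31 (SE 0.17) and -1.10 (SE 0.12). In each the tm2700 libraries were below the wild-type libraries. The remaining adult genes, col-7 and the marker col-19, did not fall. They had log2 fold changes of 0.35 (SE 0.16) and 0.19 (SE 0.07), and neither passed. The lifespan-linked col-120 fell as well, with a log2 fold change of -1.39 (SE 0.24) and an adjusted p of 0.0232. Also linked to lifespan, col-10 and col-13 had -0.10 (SE 0.09) and -0.07 (SE 0.11) and did not pass. The other genes of the 5 largest falls, col-36 and col-43, were at 0 and 0.211 CPM and at 0.235 and 0.253 CPM in tm2700 animals, against 1.77 and 1.19 CPM and 1.23 and 0.968 CPM in wild type, and they rest on few reads. Of these, col-36 passed the filter on low values only through the wild-type libraries. For col-36 there were 5 reads in tm2700 animals against 73 in wild type, which after scaling to depth is 14.8-fold fewer, with an exact 95% interval from 6.05 to 46.9.

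The members that were higher in tm2700 animals changed less. The largest rise was that of col-92, at 179.9 and 185 CPM in tm2700 animals, against 109 and 88.8 CPM in wild type (log2 fold change 0.83, SE 0.10, adjusted p = 0.003). It was followed by col-129, col-139, col-81 and col-95, with log2 fold changes of 0.75 (SE 0.09), 0.73 (SE 0.08), 0.71 (SE 0.08) and 0.61 (SE 0.07). Of the 10 members highest over all wild types 3 rose, and of the 10 highest in the wild type of this set 2 did. Of these genes, col-122 was at 999 and 1043 CPM in tm2700 animals, against 780.0 and 721 CPM in wild type (log2 fold change 0.40, SE 0.07, adjusted p = 0.0311). The larval genes had log2 fold changes of 0.04, -0.07 and -0.24 for col-12, col-13 and col-17, and none of the dauer genes passed. Of the 21 other cuticle collagen genes 5 fell and 0 rose, of which rol-1 fell most, by 1.78 (SE 0.18, adjusted p = 0.00164). The moulting markers summed to 450 and 457 CPM in tm2700 animals against 418 and 446 CPM in wild type, and none of the 10 passed. Of the 6 vitellogenin genes only vit-3 passed, and it rose by 1.14 (SE 0.15, adjusted p = 0.00533). It was at 118 and 126 CPM in tm2700 animals, against 42.9 and 64.6 CPM in wild type. The list summed to 25403 to 28066 CPM in tm2700 animals, against 23927 to 24421 CPM in wild type. The part of these genes was not tested. Without the second wild-type replicate the calls were 13 higher and 27 lower.

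The animals with the sid-1(+) transgene were compared with the same wild-type libraries, and 18 of 148 members were higher and 25 lower in them, against 3.54% of all 18297 genes that passed, 1.26% as higher and 2.28% as lower. Again the 4 genes of the moult into the adult fell, and col-138 was at 14.2 and 22.3 CPM in tm2700; tmIs1005 animals, against 49.1 and 40.4 CPM in wild type (log2 fold change -1.34, SE 0.15, adjusted p = 6.89e-08). The largest falls were those of col-71, col-73, col-175 and col-63, with log2 fold changes of -1.44 (SE 0.16), -1.43 (SE 0.13), -1.43 (SE 0.20) and -1.38 (SE 0.17), and in each the groups did not overlap. The larval gene col-17 fell too, to 24.7 and 21.4 CPM in tm2700; tmIs1005 animals, against 45.6 and 30.7 CPM in wild type (log2 fold change -0.78, SE 0.15, adjusted p = 0.000767). Of the adult genes, col-7 rose, with a log2 fold change of 0.75 (SE 0.18) and an adjusted p of 0.0101. The adult marker col-19 had a log2 fold change of 0.27 (SE 0.12) and did not pass. Of the 21 other cuticle collagen genes 11 fell and 0 rose. The markers of moulting larvae summed to 384 to 409.8 CPM in tm2700; tmIs1005 animals, against 418 to 446 CPM in wild type, 2 of the 10 fell, and 2 of the 6 vitellogenin genes rose, vit-3 by 1.21 and vit-4 by 1.12. The vitellogenin list summed to 22906 to 28489 CPM in tm2700; tmIs1005 animals, against 23927 to 24421 CPM in wild type. The part of these markers was not tested.

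The largest rises in these animals were those of col-102, col-84, col-2, col-40 and col-37. The dauer gene col-2 was at 1.22 and 0.88 CPM in tm2700; tmIs1005 animals, against 0.231 and 0.132 CPM in wild type (log2 fold change 2.42, SE 0.50, adjusted p = 0.00259). The dauer gene col-40 was at 1.22 and 0.92 CPM in tm2700; tmIs1005 animals, against 0.077 and 0.396 CPM in wild type (log2 fold change 2.16, SE 0.51, adjusted p = 0.0094). In contrast, the dauer gene col-183 was lower, with a log2 fold change of -1.09 (SE 0.59), and did not pass. For col-102 there were 34 reads in tm2700; tmIs1005 animals against 3 in wild type (ratio 11.7, exact 95% interval 3.68 to 59.6). Of the 18 that were higher, col-37, col-40, col-84 and col-102 passed the filter on low values only through the libraries with the transgene. The filter thus selected for a rise in these 4 genes, and their values are a description only. In the 2 genes with CPM given, both libraries of the transgenic strain were above both of wild type, at levels well below those of qt9 animals. In the same libraries cut-1 was at 0.722 and 0.760 CPM in tm2700; tmIs1005 animals against 0.0770 and 0.0440 CPM in wild type, and its part was not tested. Without the first wild-type replicate the calls were 12 higher and 13 lower.

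Between the strains without and with the transgene, tm2700 animals were higher in 3 of 146 members and lower in 6, against 2.06% of all 18294 genes that passed, 1.37% as higher and 0.683% as lower. The 6 that were lower are col-102, col-36, col-43, col-84, col-2 and col-158. Of these, col-102, col-36, col-84 and col-2 passed the filter on low values only through the libraries with the transgene. The filter thus selected for their direction, and their adjusted p-values, ratios and intervals are a description only. Of the dauer genes only col-2 is among the 6, while col-40 and col-183 had log2 fold changes of -1.55 (SE 0.52) and 0.99 (SE 0.52). For col-43 there were 0.235 and 0.253 CPM in tm2700 animals, against 1.9 and 1.8 CPM in tm2700; tmIs1005 animals (log2 fold change -2.91, SE 0.38, adjusted p = 7.94e-06). For col-158 there were 0.704 and 0.506 CPM in tm2700 animals, against 2.71 and 1.96 CPM in tm2700; tmIs1005 animals (log2 fold change -1.94, SE 0.31, adjusted p = 0.000143). For col-2 there were 0.469 and 0.0421 CPM in tm2700 animals, against 1.22 and 0.88 CPM in tm2700; tmIs1005 animals (log2 fold change -1.98, SE 0.50, adjusted p = 0.0249). All these levels are low, and col-102 had 1 read in tm2700 animals against 34 with the transgene (35.6-fold fewer, exact 95% interval 5.96 to 1445), while col-36 had 5 against 90 (18.8-fold fewer, 7.77 to 59.4) and col-84 had a log2 fold change of -2.79 with an SE of 0.57 (adjusted p = 0.00317).

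The 3 that were higher in tm2700 animals are col-41, col-17 and col-168. The larval gene col-17 was at 31.5 and 35.5 CPM in tm2700 animals, against 24.7 and 21.4 CPM in tm2700; tmIs1005 animals (log2 fold change 0.53, SE 0.12, adjusted p = 0.013), and col-41 and col-168 had log2 fold changes of 0.61 (SE 0.16) and 0.48 (SE 0.11), with adjusted p-values of 0.0374 and 0.0169. None of the 6 adult genes passed here (median -0.04), and their values against wild type stand above for each strain. Of the 21 other cuticle collagen genes 8 were higher in tm2700 animals, of which bli-1, a gene of the struts of the adult cuticle, was highest at 0.99 (SE 0.17, adjusted p = 0.000437). The basement membrane collagen genes emb-9 and let-2 were higher too, by 0.59 (SE 0.12, adjusted p = 0.00315) and 0.56 (SE 0.12, adjusted p = 0.00644), and with cle-1 they summed to 557 to 671 CPM in tm2700 animals, against 398 to 431 CPM in tm2700; tmIs1005 animals. Of the 10 markers of moulting larvae 2 were higher, and these summed to 450 to 457 CPM in tm2700 animals, against 384 to 409.8 CPM in tm2700; tmIs1005 animals, while none of the vitellogenin, oocyte, sperm or embryo markers passed. Their part in the collagen result was not tested. The calls were 13 higher and 12 lower without the first and 9 higher and 7 lower without the second transgenic replicate, and 0 higher and 5 lower without the second tm2700 replicate.

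This comparison shares no library with that of qt9 animals against wild type. All 6 members that were lower in tm2700 animals than with the transgene were among the 23 that were higher in qt9 animals than in wild type, which is 6 of 6 of the shorter list and 6 of 23 of the longer. This overlap is a description only. Of the 6, col-102, col-36, col-84 and col-2 passed the filter on low values in the tm2700 comparison only through the libraries with the transgene. In the qt9 comparison col-102 and col-84 passed it only through the qt9 libraries. The filter thus selected for the direction of these genes. The other two, col-43 and col-158, passed it without the higher group in both comparisons.

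**Figure D5:**
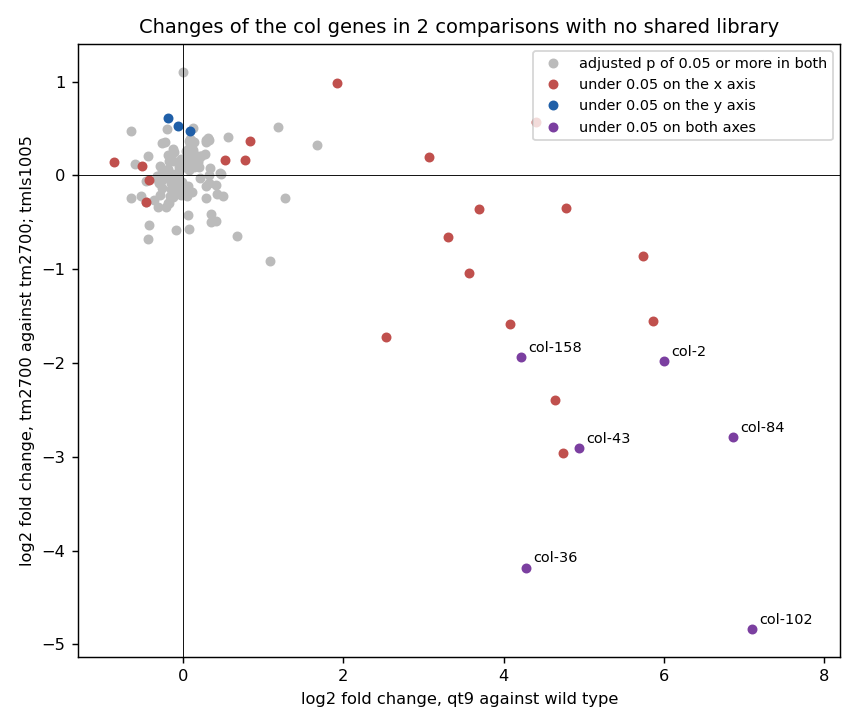
Log2 fold change of each of 146 col genes in qt9 animals against wild type (horizontal axis) and in tm2700 animals against tm2700; tmIs1005 animals (vertical axis), coloured by an adjusted p under 0.05 on one axis, on both or on neither. The 6 genes that passed on both axes, named in the plot, are all at the lower right. For 4 of them the filter on low values selected for the direction on the vertical axis.

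The wild types of the deletion and nonsense sets have the same genotype and protocol, but most of the family differed between them. In the deletion-set wild type 113 of 130 members were lower and 2 higher than in the wild type of the nonsense set, against 64.4% of all 16757 genes that passed, 33.5% as lower and 31% as higher. The median log2 fold change was -1.80, against -0.03 for all genes. The largest fall was that of col-41, at 6.58, 5.55 and 10.7 CPM in the deletion-set wild type, against 90, 81 and 83.8 CPM in that of the nonsense set (log2 fold change -3.72, SE 0.19, adjusted p = 7.24e-09). The next falls were those of col-180, col-170, col-107 and col-91, with log2 fold changes of -3.63 (SE 0.21), -3.59 (SE 0.21), -3.45 (SE 0.20) and -3.39 (SE 0.22). The members that rose were col-121, at 4.18, 5.57 and 5.06 CPM in the deletion-set wild type, against 1.56, 1.31 and 1.53 CPM in that of the nonsense set (log2 fold change 1.49, SE 0.15, adjusted p = 1.51e-06), and col-74 (log2 fold change 0.34, SE 0.13, adjusted p = 0.0379).

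Both larval and adult members were lower in the deletion-set wild type. The larval gene col-17 was at 31.2, 32.6 and 50.5 CPM there, against 204, 163 and 199 CPM in the wild type of the nonsense set (log2 fold change -2.56, SE 0.16). The adult marker col-19 was at 686, 575 and 760.5 CPM in the deletion set, against 1501, 1371 and 1350.3 CPM in the nonsense set (log2 fold change -1.32, SE 0.12). The 3 larval genes fell by 2.18 to 2.61, the 6 adult genes by 1.32 to 2.42, and the 10 members highest over all wild types by 0.85 to 1.91. Of the 2 dauer genes tested neither passed. Beyond the family, 19 of 21 other cuticle collagen genes fell and dpy-14 and dpy-17 rose (log2 fold changes 0.88, SE 0.08, and 1.09, SE 0.08), all 11 processing enzymes fell (median -1.10), and 9 of 10 markers of moulting larvae fell (median -1.66). These markers summed to 234 to 289 CPM in the deletion-set wild type, against 523 to 623 CPM in that of the nonsense set, and the vitellogenin genes to 44993 to 50522 CPM against 46061 to 53833 CPM. Of the 6 vitellogenin genes 3 fell (vit-1, vit-4 and vit-6, median of the list -0.27), and of 6 oocyte genes oma-1 rose and cbd-1 fell. The sperm genes summed to 13.3 to 15.6 CPM in the deletion-set wild type, against 21.0 to 22.1 CPM in that of the nonsense set, and 4 of 5 fell (median -0.89). The embryo genes summed to 3.73 to 4.56 CPM against 3.12 to 3.26 CPM, and end-1, end-3, tbx-37 and tbx-38 rose while hlh-1 fell (median 0.97). All 3 basement membrane collagen genes fell, by 0.19 to 1.07. Set and culture cannot be told apart here, and the part of the stages and tissues present was not tested.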

How the data were processed

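PolyA+ RNA of mixed-stage whole animals was quantified per transcript by the authors with Salmon after adapter trimming with cutadapt, on a C. elegans ce11/WBcel235 transcriptome, with tool versions not given in the sources used here. The deposited files hold estimated counts and TPM per transcript for each library. Transcripts were assigned to genes with the Ensembl release 115 annotation, to which 88 of 35749 transcripts could not be matched, and the estimated counts were summed per gene and rounded to whole numbers. Libraries held 35320382 to 79287591 estimated counts in the plate sets and 22147631 to 26396892 in the previous set. Printed CPM values are scaled to this total, and fold changes to TMM factors.

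Groups came from the sample labels. Each comparison was fitted on its own groups with edgeR 4.0.16 (R 4.3.3, quasi-likelihood test), over all genes above 0.1 CPM in at least 3 libraries (2 in the previous set), with Benjamini-Hochberg adjustment over all genes tested and a threshold of 0.05. The SE given is the size of the log2 fold change divided by the square root of the F statistic of this test. It is thus approximate, and in genes with few reads it can be smaller than counting error. The alternatives were limma voom (limma 3.58.1), DESeq2 1.42.0, upper-quartile scaling, no filter, length-scaled TPM, all samples of a set, the replicate number as a block, and each library left out. The fitting steps were tested on simulated data. Intervals cover counting error only. The p-values set the difference between groups against the spread between replicates of a strain, and do not cover variation between independently made lines.

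Named are all members that passed where 10 or fewer did, otherwise the 5 largest rises and falls without overlap, and the members of known stage and highest TPM. The members and lists were chosen with earlier results of these data known.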

Additional observations from a re-analysis of the deposited data

Results flagged for a closer look

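For col-103 the change in jam113 animals minus that in jam80 animals, each against its own wild type, was 1.24 on the log2 scale (edgeR interaction test, adjusted p = 0.0421), with all 3 jam113 libraries above their wild type. For col-142 the same difference was 0.93 (adjusted p = 0.0474), again with all 3 jam113 libraries above their wild type. Both stand out because the test of the difference itself passed, and both lost this call in the fit with the replicate number as a block. Neither passed within the deletion set alone, and the count of members that passed the interaction test ranged from 0 to 37 when single libraries were left out.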

How the results depend on the processing

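Leaving out each library in turn gave 0 to 34 changed members for jam113, 0 to 2 for jam80, 21 to 51 for jam86 and 2 to 66 for jam86 against jam80. It gave 22 to 35 for qt9, 25 to 40 for tm2700, 5 to 25 for tm2700 against tm2700; tmIs1005, 25 to 50 for tm2700; tmIs1005, 111 to 114 between the plate wild types and 0 to 37 for the interaction. With DESeq2 the counts were 33 (jam113), 40 (jam86 against jam80), 13 (qt9), 4 (tm2700 against tm2700; tmIs1005) and 18 (interaction). Without a filter they were 3 (jam113), 39 (jam86 against jam80), 17 (tm2700 against tm2700; tmIs1005) and 10 (interaction). With upper-quartile scaling they were 26 (jam86 against jam80) and 1 (interaction), with length-scaled TPM 15 (tm2700) and 5 (tm2700 against tm2700; tmIs1005), and with all samples of the set 5 in that comparison. The causes were not tested. As summed TPM the share of the family averaged 1.01% in the previous wild type, 1.09% in qt9, 1.16% in tm2700, 0.978% in tm2700; tmIs1005, 4.05% in the wild type of the nonsense set and 4.32% in jam86. Same-numbered samples correlated at -0.246 to 0.177 on average, so the numbers were not taken as pairs. With the replicate block the counts were 0 (jam113), 0 (jam80), 45 (jam86), 6 (jam86 against jam80), 24 (qt9), 22 (tm2700), 7 (tm2700 against tm2700; tmIs1005), 51 (tm2700; tmIs1005), 114 (plate wild types) and 0 (interaction). Crossed pairs, chosen after seeing the data, gave 27 (qt9) and 53 (tm2700). Of 665 values of named members under these settings, 97 no longer passed and 0 changed direction.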
